A study of Homo sapiens with 6 samples.

Results

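HIVEP1, HIVEP2 and HIVEP3 form a small family of very large zinc finger transcription factors, and their transcripts were read in human hepatoma cells depleted of the long noncoding RNA EGOT. The members are all probe sets that the array's platform annotation pairs with 1 of these 3 symbols. There were 4 such probe sets among 44629 on the array and among 15835 that carry a single gene symbol. The 3 genes stood among 14812 named genes. HIVEP1 and HIVEP3 had 1 probe set each and HIVEP2 had 2. The family was chosen with the difference between the groups known, since HIVEP2 had one of the lowest differences of all genes. The differences of the members are therefore given as descriptions with their errors, without p-values.

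The proteins are named for binding an enhancer of human immunodeficiency virus, and the family is also called Schnurri after its Drosophila member. Each carries separated pairs of C2H2 zinc fingers that bind kB-like DNA, the kind of site also bound by NF-kB, for example in enhancers of MHC class I and interferon genes. In Drosophila, Schnurri works with SMAD proteins to repress target genes when a BMP-type signal arrives. In mouse, the HIVEP2 protein acts with SMAD proteins and C/EBP alpha in fat cell differentiation, and the HIVEP3 protein restrains bone formation through RUNX2 and the ubiquitin ligase WWP1.

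All samples were HuH7, a hepatoma line. The EGOT gapmer group (3 arrays) received a gapmer against EGOT and the control gapmer group (3 arrays) a control gapmer, at 50 pmol per well. A gapmer is an oligonucleotide whose DNA centre directs RNase H to the RNA it pairs with. Both groups also received 0.3 µg of a plasmid for PKR, a kinase that senses double-stranded RNA, together with carrier plasmid DNA and the double-stranded RNA mimic poly I:C. RNA was taken after 36 hours. The design has 1 gapmer against EGOT and no arrays without PKR and poly I:C, and nothing in the labels says that replicates were grown as separate cultures, so the spread behind each p-value may be only technical. The sequences the labels give as targeted are shown because the comparison rests on them.
EGOT gapmer: AGAGACACTTAGAAGA
control gapmer: AACACGTCTATACGC

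EGOT itself read 4.91, 4.90 and 4.69 in EGOT gapmer arrays, against 6.29, 6.79 and 6.71 in control gapmer arrays, on the log2 scale that is used for every level below. EIF2AK2, the gene of PKR, read 10.68 on average in EGOT gapmer arrays and 11.25 in control gapmer arrays. Its log2 difference was -0.57 (limma adjusted p = 0.0119) and the groups did not overlap. Both groups received the PKR plasmid, and any RNA from it cannot be told apart here from that of the cells' own gene. The part of this PKR difference in the results below was not tested. Array medians ran from 5.08 to 5.23. EGOT gapmer replicate 2 had the highest median and lay apart on the first principal component, at 40.3, where the other EGOT gapmer arrays were at 11.6 and 16.9 and the control gapmer arrays between -23.5 and -22.1. Hepatocyte markers were present: 12 of 15 were measured and all 12 lay above the median of every array, with albumin (ALB) at 13.7 in both groups. Of these 12, APOA1 rose by 0.36 (limma adjusted p = 0.0406), or 8.33% called against 8.41% of all genes. By limma 4 of the 12 had an unadjusted p under 0.05, as did 3708 of all 14812 genes. With any 1 array left out APOA1 lay between 0.32 and 0.41 and was not called (limma adjusted p up to 0.140). Of 3 measured fibroblast and 5 measured endothelial markers, 0 lay above the median on all arrays. Of 14 leukocyte markers 6 were measured. Their mean level was 6.83 to 6.93 in EGOT gapmer arrays and 6.53 to 6.65 in control gapmer arrays. CD68 and LYZ rose by 1.06 and 0.57 (limma adjusted p = 0.00807 and 0.0171), or 33.3% called against 8.41% of all genes. CD2, CD8A, CD14 and NKG7 did not pass, with differences of 0.34, -0.01, -0.06 and -0.17. CD68 was not called without control gapmer replicate 2 (1.06, limma adjusted p = 0.0562), nor LYZ without control gapmer replicate 1 (0.61, 0.0607), 2 (0.53, 0.0804) or 3 (0.56, 0.0751). The part of these markers in the results below was not tested.

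HIVEP2 had the lowest difference of the family, and it was seen in 1 of its 2 probe sets. HIVEP2 is a regulator of neural and T cell development, and loss of 1 copy causes a developmental disorder in humans. Its brighter probe set, 17024335, read 8.00, 8.16 and 8.09 in EGOT gapmer arrays, against 9.18, 9.12 and 9.12 in control gapmer arrays. All EGOT gapmer arrays were lower, and the groups were separated by 0.97. The means were 8.08 ± 0.0799 with the EGOT gapmer and 9.14 ± 0.0314 with the control gapmer (SD, n = 3 each). Its log2 difference, with a standard error of 0.0725, came to -1.06, which puts the EGOT gapmer level at 0.479 of the control gapmer level. By size it was the 12th lowest difference of 14812 genes. Without EGOT gapmer replicate 2 the difference was -1.10. In RNA from whole cultures, fewer cells expressing a gene and less RNA per cell cannot be told apart.

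The other HIVEP2 probe set, 17013164, did not follow the brighter one. It read 4.23, 4.14 and 4.25 in EGOT gapmer arrays, against 3.75, 4.13 and 4.08 in control gapmer arrays. Control gapmer replicate 1 was low, and the groups were separated by only 0.00557. The means were 4.21 ± 0.0601 with the EGOT gapmer and 3.99 ± 0.205 with the control gapmer (SD, n = 3 each), a log2 difference of 0.22 with a standard error of 0.112. Without control gapmer replicate 1 the difference was 0.10, and after another quantile normalization or cyclic loess the groups overlapped. The probe set was below the median of all 6 arrays, where between 22.2% and 31.8% of probe sets were dimmer, so a fall in it could be missed. The mean of both probe sets had a log2 difference of -0.42.

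Both probe sets are annotated with the same transcript, NM_006734, but they are numbered far apart. Of the 20 named probe sets on chromosome 6 nearest in number to the brighter one, 19 belong to genes on the minus strand, as HIVEP2 is in RefSeq. Of the 20 nearest to the dimmer one, 19 belong to genes on the plus strand. For HIVEP3, also on the minus strand, 19 of the 20 nearest on chromosome 1 were on the minus strand. For HIVEP1, whose own strand was not available here, all 20 nearest on chromosome 6 were on the plus strand. The strand that each probe set reads is not given in the sources used here. This count was made after the values were seen, and any part of strand in the disagreement of the 2 probe sets was not tested.

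HIVEP1 had a far smaller difference. The protein is known for binding the interferon beta and MHC class I enhancers. It read 7.79, 7.83 and 7.75 in EGOT gapmer arrays, against 7.92, 7.88 and 7.90 in control gapmer arrays. Each EGOT gapmer array was lower than each control gapmer array, by at least 0.0528. The means were 7.79 ± 0.0413 with the EGOT gapmer and 7.90 ± 0.0198 with the control gapmer (SD, n = 3 each). This is a log2 difference of -0.11 (standard error 0.0654) with a 95% interval of -0.27 to 0.04.

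HIVEP3 had almost the same mean in both groups. Besides its part in bone, its protein binds TRAF2 and restrains NF-kB signalling. HIVEP3 read 4.32, 4.43 and 4.45 in EGOT gapmer arrays, against 4.43, 4.27 and 4.50 in control gapmer arrays. The values of the groups interleave, and EGOT gapmer replicate 2 and control gapmer replicate 1 carry the identical deposited value. The means were 4.40 ± 0.0668 with the EGOT gapmer and 4.40 ± 0.114 with the control gapmer (SD, n = 3 each), and the 95% interval of the log2 difference was -0.20 to 0.20. The probe set was below the median of all 6 arrays, so a small change would be compressed.

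**Figure D1:**
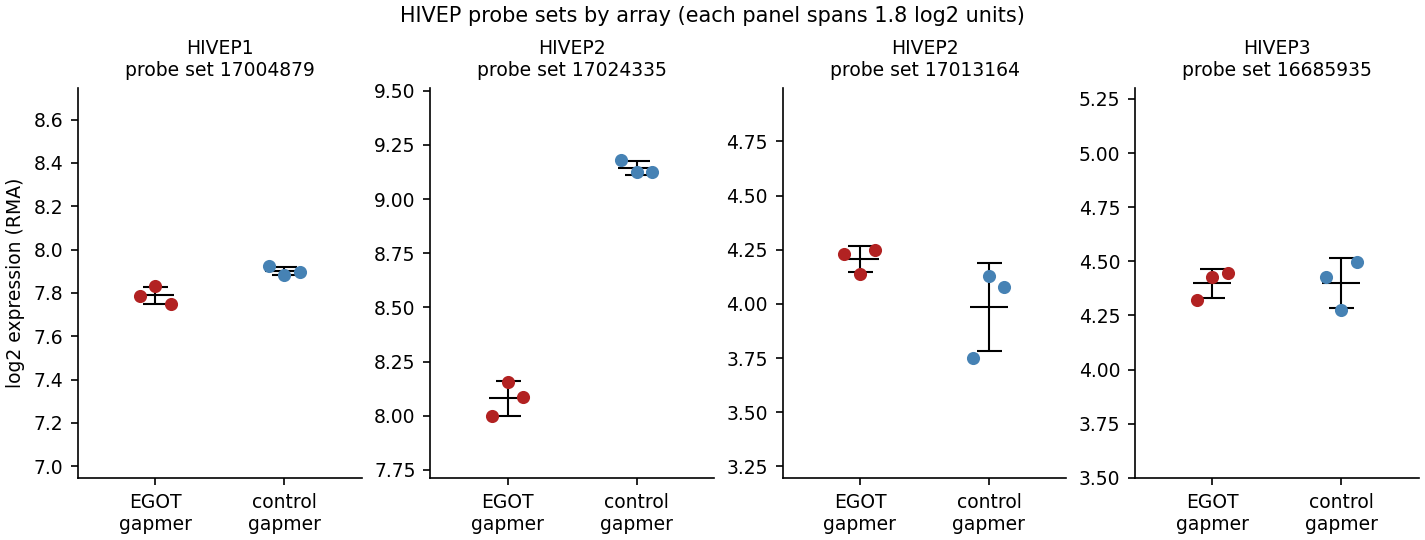
Log2 expression (RMA) of the 4 HIVEP probe sets, with points for single arrays and the mean with its SD for the EGOT gapmer (left in each panel) and the control gapmer (right), 3 arrays each. Every panel spans the same number of log2 units, and HIVEP2 probe set 17024335 is separated by 0.97 between the groups.

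Over all genes, 1245 of 14812 passed an adjusted p of 0.05 (8.41%), 475 lower (3.21%) and 770 higher (5.2%) with the EGOT gapmer (limma, Benjamini-Hochberg over all genes). With 1 array left out between 9 and 579 passed, and the split was 679 higher and 674 lower after another quantile normalization and 644 higher and 677 lower after cyclic loess. Of the family, HIVEP2 was among the genes called lower, and HIVEP1 and HIVEP3 were not called. The groups did not overlap in 31.7% of all genes, and in 11.5% with the EGOT gapmer lower, as in HIVEP1 and HIVEP2, and in 20.2% with it higher. Since the family was chosen on this comparison, nothing is read from these counts.

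All 3 genes are long. Their genomic spans in RefSeq (GRCh38.p14) are 204 kb for HIVEP1, 194 kb for HIVEP2 and 529.6 kb for HIVEP3, and 93.8%, 93.4% and 98.8% of the genes tested are shorter. Differences moved with span across all genes, being lower in long genes. The smooth trend over all genes stood at -0.10 at the spans of HIVEP1 and HIVEP2 and at -0.18 at that of HIVEP3. With this trend removed from each array the log2 differences were -0.0091 for HIVEP1, -0.96 for HIVEP2 and 0.18 for HIVEP3. Their standard errors were 0.0614, 0.0641 and 0.0838. HIVEP1 thus lay on the trend, HIVEP2 far below it and HIVEP3 above it. The HIVEP3 probe set is dim, so its difference may be compressed toward 0, which also lies above the trend there. HIVEP1 and HIVEP2 have nearly equal spans and their differences were -0.11 and -1.06. The part of span or of dimness in the differences of the 3 genes was not tested.

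**Figure D2:**
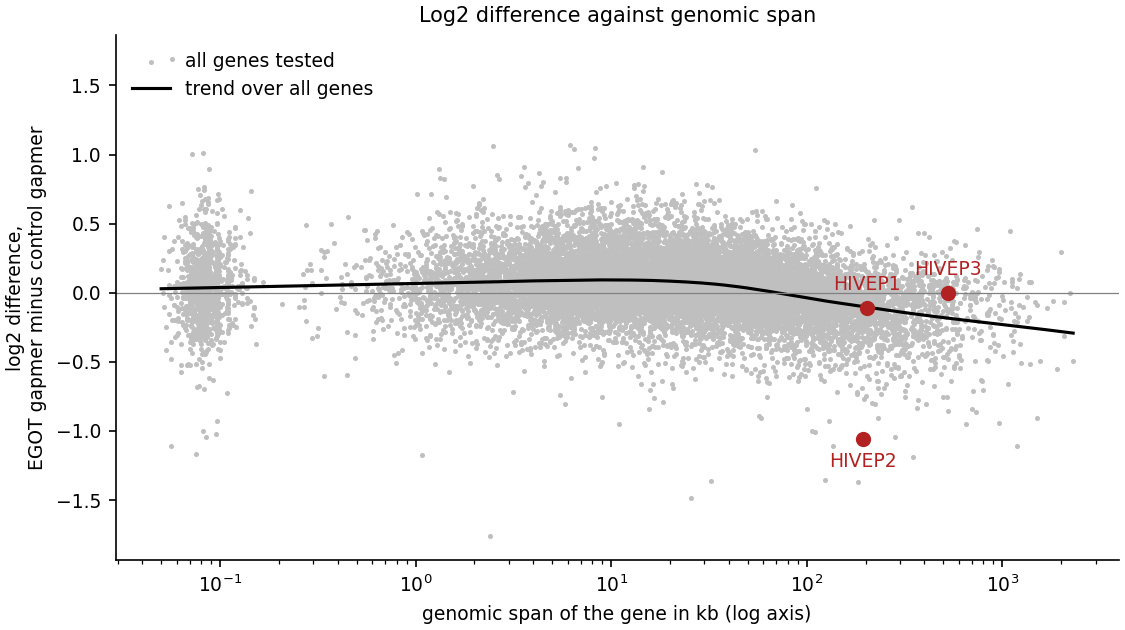
Log2 difference (EGOT gapmer minus control gapmer) of each of 14812 genes against its genomic span in kb on a log axis, with the smooth trend over all genes as a line and the HIVEP genes in red. HIVEP1 lies at -0.11 near the line, HIVEP2 at -1.06 below it and HIVEP3 near 0 above it.

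The DNA before the annotated starts was read from RefSeq (GRCh38.p14) for HIVEP2 and HIVEP3, with 2 starts each. The windows before the outermost starts are shown because HIVEP2 had the difference and HIVEP3 did not. Each holds the 250 bases before the start on the minus strand, at chr6:142945734-142945983 for HIVEP2 and chr1:42035935-42036184 for HIVEP3. Capitals mark matches to the kB-like pattern GGGNNNNNCC on either strand.
HIVEP2: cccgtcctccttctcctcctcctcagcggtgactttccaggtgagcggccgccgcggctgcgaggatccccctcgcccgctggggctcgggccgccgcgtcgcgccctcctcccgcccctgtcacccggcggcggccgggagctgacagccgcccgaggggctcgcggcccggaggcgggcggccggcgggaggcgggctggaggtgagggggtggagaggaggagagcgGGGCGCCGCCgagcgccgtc
HIVEP3: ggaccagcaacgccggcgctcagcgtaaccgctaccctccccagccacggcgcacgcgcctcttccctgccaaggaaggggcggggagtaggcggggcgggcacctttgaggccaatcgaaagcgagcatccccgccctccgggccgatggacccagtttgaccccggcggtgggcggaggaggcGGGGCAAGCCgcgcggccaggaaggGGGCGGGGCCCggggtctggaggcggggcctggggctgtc
The HIVEP2 window holds 1 match, and the HIVEP3 window holds 3, of which 2 overlap. The window before the inner start of HIVEP2 also holds 3, among them GGGGAATACC and, 1 base on, GGGAATACCC, which matches on both strands. The window before the inner start of HIVEP3 holds 1, GGTTAAACCC, which matches on the opposite strand. The pattern occurs in 54.4% of 35116 such windows, so a match is common. The outer windows have a GC content of 80.0% for HIVEP2 and 74.8% for HIVEP3, against a median of 58.0% over all windows, whereas the inner HIVEP3 window has 35.2%. The pattern GAAANNGAAA, as in interferon response elements, occurs in 0 of the 4 windows and in 3.02% of all. GGGCGG, the GC box, occurs 3 times in the outer HIVEP2 window and 5 times in the outer HIVEP3 window, and 42.6% of all windows hold it. All motifs were searched on both strands.

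The genes with profiles most like that of HIVEP2 over the 6 arrays were COG6, FRYL, CENPV, EXOC6B and FHIT. Likeness was the Euclidean distance between log2 values centred on each gene's 6-array mean. The distance was 0.0919 for COG6, a Golgi tethering subunit, 0.175 for FRYL, 0.187 for CENPV, a centromere-associated protein, 0.236 for EXOC6B, of the exocyst family, and 0.245 for FHIT, a dinucleotide hydrolase. COG6 read 6.64, 6.87 and 6.82 in EGOT gapmer arrays, against 7.91, 7.89 and 7.85 in control gapmer arrays. In COG6 as in HIVEP2, replicate 1 was the lowest of the EGOT gapmer arrays and the highest of the control gapmer arrays. The log2 differences of these 5 genes ran from -1.11 for COG6 to -0.90 for FHIT, close to that of HIVEP2 by construction of the measure.

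**Figure D3:**
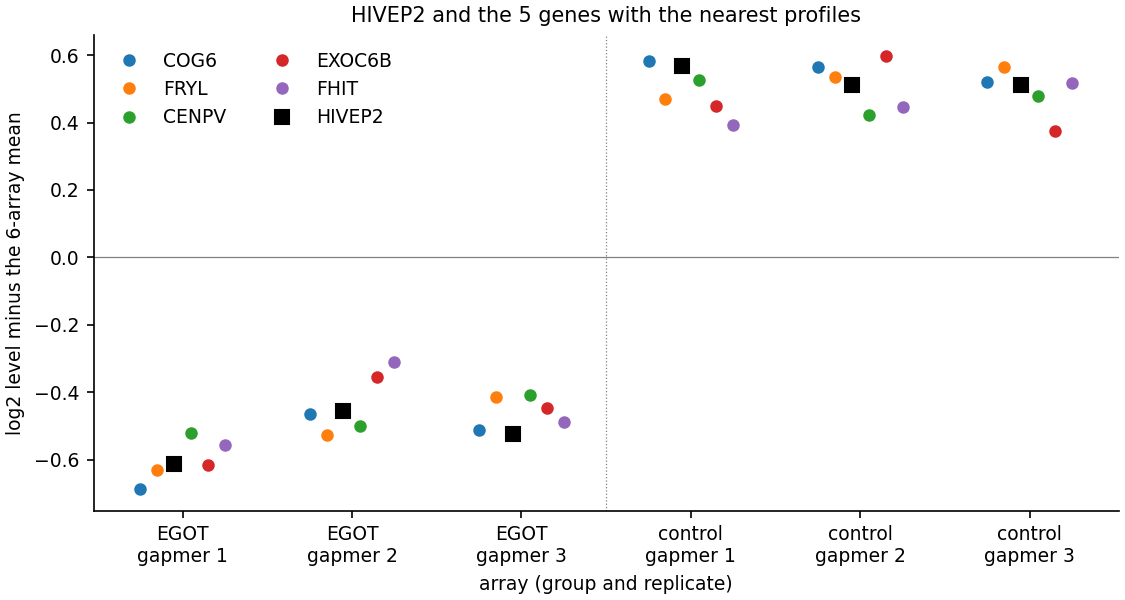
Log2 level minus the gene's 6-array mean for HIVEP2 (black squares) and the 5 genes nearest to it (coloured points), by array, with the EGOT gapmer arrays on the left. COG6 follows HIVEP2 most closely, at a distance of 0.0919.

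Of the genes of the BMP pathway, in which the fly Schnurri protein acts, some fell and most did not pass the test. Of 27 listed 17 were measured, 5 fell and 0 rose, or 29.4% called against 8.41% of all genes. With only genes above the median of all probe sets tested, 5 of 14 passed by limma, against 2110 of 10349 genes. All 17 had a log2 difference below 0, where 6244 of 14812 genes did, and the list's median was -0.14, against 0.04 over all genes. The 5 genes that fell were HAMP, SMAD6, SMAD7, BAMBI and BMP2. HAMP, SMAD6, SMAD7 and BAMBI are known targets of the pathway, and the last 3 of these also restrain it.

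HAMP, which encodes the iron hormone hepcidin, read 8.35, 8.08 and 8.39 in EGOT gapmer arrays, against 8.71, 8.94 and 8.74 in control gapmer arrays. It fell by 0.53 with a standard error of 0.110 (limma adjusted p = 0.0341). All EGOT gapmer arrays were lower, with replicate 2 the lowest. SMAD6, an inhibitory SMAD, read 7.53, 7.30 and 7.38 in EGOT gapmer arrays, against 7.79, 7.86 and 7.97 in control gapmer arrays. It fell by 0.47 with a standard error of 0.0904 (limma adjusted p = 0.0289). The groups did not overlap in SMAD6. SMAD7, the other inhibitory SMAD, read 7.27, 7.33 and 7.27 in EGOT gapmer arrays, against 7.58, 7.75 and 7.74 in control gapmer arrays. It fell by 0.40 with a standard error of 0.0763 (limma adjusted p = 0.0280). Its EGOT gapmer arrays were closely grouped and all lower.

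BAMBI, a decoy receptor, read 10.69, 10.65 and 10.59 in EGOT gapmer arrays, against 10.93, 10.98 and 10.98 in control gapmer arrays, and fell by 0.32 with a standard error of 0.0671 (limma adjusted p = 0.0340). BMP2, a ligand, read 9.97, 9.95 and 9.96 in EGOT gapmer arrays, against 10.24, 10.30 and 10.28 in control gapmer arrays, and fell by 0.32 with a standard error of 0.0642 (limma adjusted p = 0.0317). Both were lower in every EGOT gapmer array. The SMADs that carry the signal did not pass: SMAD9 had a difference of -0.25, SMAD5 of -0.20, SMAD1 of -0.09 and SMAD4 of -0.02 (limma adjusted p between 0.109 and 0.930). The ligand BMP4 had a difference of -0.01 and the antagonist NOG of -0.08. MSX2 and ATOH8, also targets on the list, had differences of -0.25 and -0.09 (limma adjusted p = 0.473 and 0.731), and their groups overlapped. Both were dim, MSX2 lying above the median on 1 array and ATOH8 on 0. Chosen after the values were seen, these genes are named to show the rest of the pathway. The 5 calls rest on all 6 arrays: with any 1 array left out, 0 or 1 passed by limma, while between 14 and 17 members were below 0. In those fits 5 to 7 members were at an unadjusted p under 0.05, against 2957 to 3673 of all 14812 genes. Once the span trend was removed 4 fell, and SMAD6, at -0.46, did not pass (limma adjusted p = 0.0527).

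Protein partners of the family and genes described as bound by or responding to it were not called. Of 13 listed partners 9 were measured and 0 passed by limma, with 2 at an unadjusted p under 0.05 and a median of -0.09. The smallest p-values belonged to SMAD5, the fat cell regulator PPARG at -0.17, the bone regulator RUNX2 at 0.33 and SMAD3 at -0.12 (limma adjusted p between 0.143 and 0.348). Of 14 genes with a described HIVEP site or response 7 were measured and 0 passed by limma. Their median was -0.13, with 1 at an unadjusted p under 0.05, PPARG. For both lists the background is 3708 of all 14812 genes at an unadjusted p under 0.05. MYC, whose regulatory region binds the HIVEP2 protein in rat, had a difference of -0.21, TNF of -0.29 and the somatostatin receptor gene SSTR2, a described HIVEP2 target in mouse, of -0.13 (limma adjusted p between 0.208 and 0.411). B2M, which encodes the light chain of MHC class I, had a difference of -0.02. The other 7 of that list, including the MHC class I heavy chain genes and IFNB1, were not analysed here.

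NF-kB subunits bind the same kind of site. Of 14 listed 7 were measured, 1 fell and 0 rose, or 14.3% called against 8.41% of all genes, with a median of -0.08. With only genes above the median of all probe sets tested, 1 of 7 passed by limma, against 2110 of 10349 genes. NFKB1 read 7.83, 7.99 and 7.95 in EGOT gapmer arrays, against 8.36, 8.42 and 8.48 in control gapmer arrays, and fell by 0.50 with a standard error of 0.0763 (limma adjusted p = 0.0171). No EGOT gapmer array reached the control gapmer level. The call was lost without EGOT gapmer replicate 3 (-0.51, limma adjusted p = 0.0567) and without control gapmer replicate 1 (-0.53, 0.0648), 2 (-0.50, 0.0797) or 3 (-0.47, 0.0760). REL had a difference of -0.18, RELB of -0.15, NFKB2 of -0.08 and RELA of -0.01, and the kinase gene CHUK one of 0.13, and these did not pass.

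Other large factors with many zinc fingers were lower in 3 of 23 measured (27 listed), or 13% called against 8.41% of all genes, and higher in 0, with a median of -0.06. With only genes above the median of all probe sets tested, 3 of 17 passed by limma, against 2110 of 10349 genes. TSHZ2 fell by 0.45, ZNF292 fell by 0.33 and ZEB2, a SMAD-binding repressor, fell by 0.32 (limma adjusted p = 0.0498, 0.0305 and 0.0486). Once the span trend was removed ZNF292 was the 1 that passed. When any 1 array was left out 0 passed by limma. Between 3 and 6 were then at an unadjusted p under 0.05, against 2957 to 3673 of all 14812 genes. The differences of the 23 genes ran from -0.45 to 0.39, and HIVEP2 at -1.06 lay outside that range. Whether HIVEP2 differs from these genes was not tested, as it was chosen for its difference.

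Around the HIVEP genes, 1 of the 18 nearest measured genes was called, or 5.56% against 8.41% of all genes. These were 3 on each side of each member. The count was 3 after quantile normalization, 2 after cyclic loess and 4 with a variance trend. Among 14 neighbours tested with a filter on dim genes it was 3. Over all genes these settings called 1353, 1321 and 2513 of 14812, and 2110 of 10349 with the filter. Without control gapmer replicate 2 the count of neighbours was 0, against 9 of all genes, and SCMH1 was at -0.77 (limma adjusted p = 0.0562). SCMH1, a Polycomb group gene beside HIVEP3, read 8.47, 8.58 and 8.57 in EGOT gapmer arrays, against 9.37, 9.39 and 9.26 in control gapmer arrays. It fell by 0.80 with a standard error of 0.0739 (limma adjusted p = 0.00837), while HIVEP3 was at 0.000141 and EDN2, between them in the order of measured genes, at 0.11. Beside HIVEP2, AIG1 had a difference of -0.25, ADGRG6 of -0.20, LOC153910 of 0.28, LINC01277 of -0.06, PEX3 of 0.04 and NMBR of -0.01, and none of these 6 passed (limma adjusted p of at least 0.0661). Beside HIVEP1, EDN1, the endothelin gene, stood at -0.41 without passing (limma adjusted p = 0.0555), and TMEM170B, GFOD1, ADTRP, SMIM13 and PHACTR1 had differences between -0.26 and 0.24. SLFNL1, GUCA2B, GUCA2A and FOXJ3, near HIVEP3, had differences between -0.16 and -0.03.

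**Figure D4:**
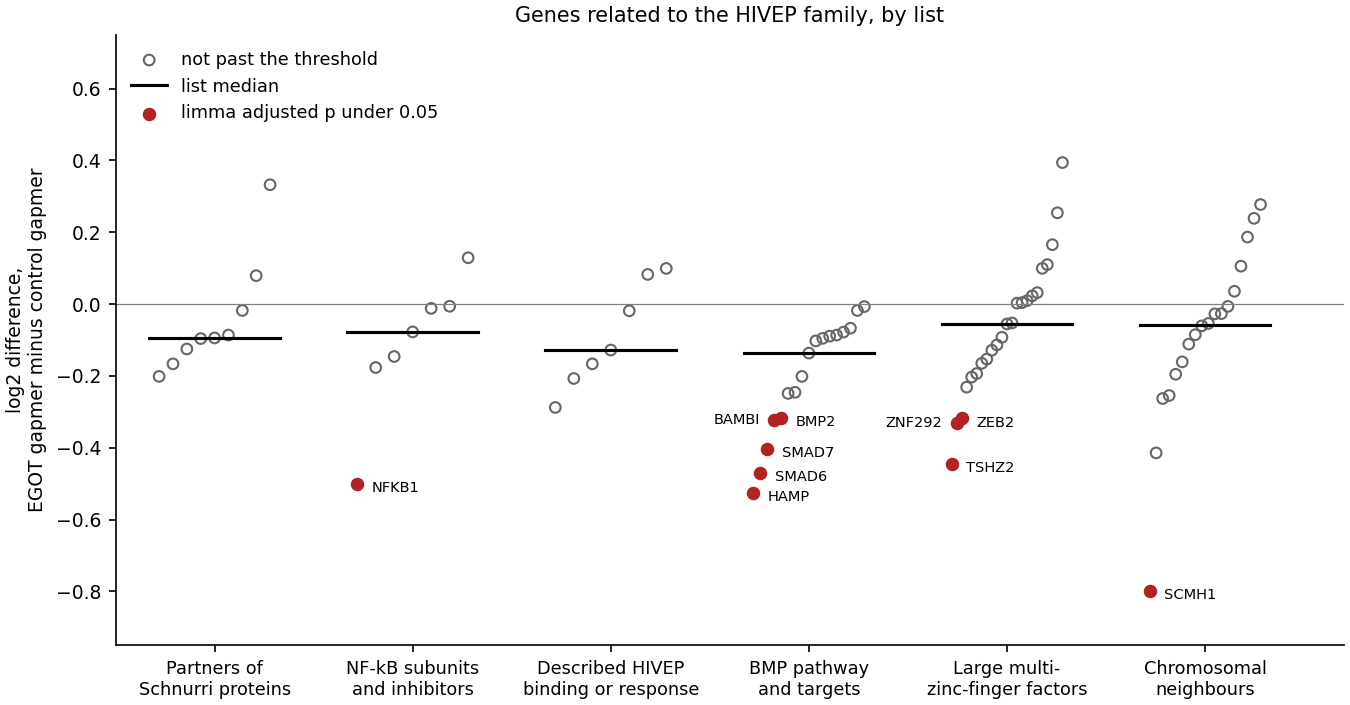
Log2 difference (EGOT gapmer minus control gapmer) of each measured gene in 6 lists related to the HIVEP family, with the list median as a bar and filled points for limma adjusted p under 0.05. All 17 BMP pathway points lie below 0, and SCMH1 at -0.80 is the lowest point of the neighbours.

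The difference of the brighter HIVEP2 probe set kept its size when arrays were left out, from -1.10 to -1.02 over the 6 arrays. That of HIVEP1 ran from -0.13 to -0.09 and that of HIVEP3 from -0.06 to 0.05.

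**Figure D5:**
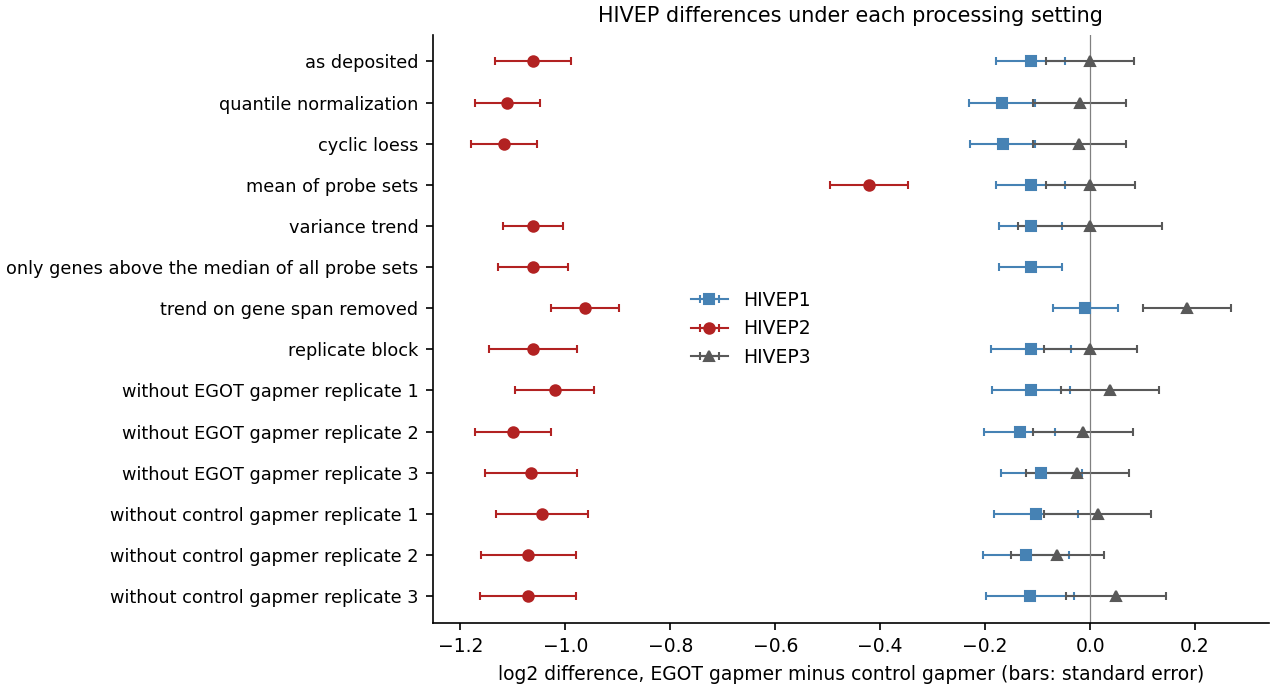
Log2 difference (EGOT gapmer minus control gapmer) of HIVEP1 (blue squares), HIVEP2 (red circles) and HIVEP3 (grey triangles) under each processing setting, with bars for the standard error. HIVEP2 lies near -1.06 except as the mean of its probe sets, at -0.42.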

How the data were processed

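Per the submitters' processing notes, the authors used RMA, and the deposited table holds its log2 values, 1 per probe set and array. RMA subtracts background, equalises the arrays' quantiles and combines probes into a probe set value. Which version was run is not given in the sources used here. RMA would hide a change in total RNA per cell and compresses differences of dim probe sets. Precision is limited by 3 arrays per group, and no counts or depth apply.

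GEO's platform annotation supplied the gene symbols, and all 15835 named probe sets matched the RefSeq gene table of assembly GRCh38.p14. The other 28794, which carry no symbol or several, were not used here. A listed gene counts as measured only if a probe set carries its symbol alone. A gene is represented by its probe set with the highest mean over the 6 arrays. The difference EGOT gapmer minus control gapmer was fitted by limma 3.58.1 under R 4.3.3 (lmFit and eBayes, two-sided, Benjamini-Hochberg over 14812 genes, threshold 0.05). The fit was tested on simulated data. The span trend is a loess of each array's deviations on log10 genomic span. Promoter windows are RefSeq's, read in Python 3.11.15. The members and lists were chosen with earlier results of these data known. Genes were named as all members of a list past the threshold, or otherwise the 4 with the smallest p, all neighbours, and the 5 nearest profiles without uncharacterised loci and small RNAs.

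Alternatives were another quantile normalization, cyclic loess, the mean of probe sets, a variance trend, a filter on dim genes, removal of the span trend, a replicate block and leaving out each array.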

Additional observations from a re-analysis of the deposited data

How the results depend on the processing

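HIVEP2 was read from its brighter probe set in all alternatives except the mean of its probe sets. So read, its direction held under all 13, with a log2 difference of -0.42 as that mean and -0.96 once the span trend was removed. The dimmer probe set on its own stayed above 0, at 0.18 after quantile normalization and 0.19 after cyclic loess. With 1 array left out it was at 0.10 to 0.29. For the brighter probe set, leaving out 1 array gave -1.10 to -1.02. HIVEP1 moved to -0.17 under quantile normalization and under cyclic loess and to -0.0091 with the span trend removed, and was -0.13 to -0.09 with 1 array left out. HIVEP3 was 0.18 with the span trend removed and -0.06 to 0.05 with 1 array left out, and it was too dim for the filter on dim genes, which gives no value for it.

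The number of genes passing was 1245, and 2513 with a variance trend, 2110 with the filter on dim genes, where fewer genes were tested, 685 with the span trend removed and 9 to 579 with 1 array left out (9 without control gapmer replicate 2). The split was 770 higher and 475 lower as deposited, 679 and 674 after quantile normalization and 644 and 677 after cyclic loess. Of the partner genes 1 passed with a variance trend and 0 with 1 array left out. Of the genes with a described site 0 passed with 1 array left out. Of the large zinc finger genes 1 passed with the span trend removed and 0 with any array left out. NF-kB genes ranged from 0 to 1 (0 without EGOT gapmer replicate 3 or any control gapmer array), BMP genes from 0 to 1 (1 without EGOT gapmer replicate 1) and neighbours from 0 to 1 (0 without control gapmer replicate 2). Neighbours counted 3 after quantile normalization and 2 after cyclic loess, where 1353 and 1321 of all genes passed by limma. They counted 4 with a variance trend (2513 of all genes) and 3 of 14 with the filter on dim genes (2110 of 10349). The cause of these moves was not tested.

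With the replicate number as a block 0 genes passed by limma, in any list or over all genes, against 3438 at an unadjusted p under 0.05 (7 BMP, 1 NF-kB, 3 large zinc finger and 5 neighbour genes). Same-numbered arrays did not deviate together (correlations of -0.03, -0.05 and 0.03, against -0.06 to 0.09 for other pairs). With 3 arrays per group this cannot decide whether the numbers pair the samples, and the labels do not say. Signal over background limits HIVEP3 and the dimmer HIVEP2 probe set.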

Other observations

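The profiles nearest to HIVEP1 were those of YTHDC1, a reader of methylated RNA, at a distance of 0.0192, ADD1 at 0.0401, IDE, an insulin-degrading enzyme, at 0.0415, MMD at 0.0459 and DENND2B at 0.0509. YTHDC1 read 10.62, 10.68 and 10.58 in EGOT gapmer arrays, against 10.75, 10.72 and 10.75 in control gapmer arrays, a log2 difference of -0.11. None of these 5 passed the threshold (limma adjusted p between 0.219 and 0.427). Those nearest to HIVEP3 were ZNF395, CFAP57, ACSM6, TOX2 and ALG14, at distances of 0.0557 to 0.0634, with log2 differences between -0.02 and 0.03. The groups overlapped in all 5 of these, as in HIVEP3.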
